A study of Mus musculus with 2 samples.

Results

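Osteoclasts were picked out of 1 Lipo-Clo and 1 Lipo-PBS single-cell library of the PN15.5 mouse mandibular first molar and the tissue around it, and 82 cells met the definition among the 17780 cells that passed the cell filter. A cell counted as an osteoclast when it held at least 10 unique molecular identifiers (UMIs, each standing for 1 captured transcript) summed over Acp5, Ctsk, Ocstamp, Dcstamp, Atp6v0d2 and Mmp9, at least 2 of them from Acp5, with S100a8 and S100a9 together under 2% of its UMIs. The cell filter asked for at least 200 genes and at most 20% of UMIs from mitochondrial genes. The definition was made on measured expression, so the 6 genes are described below as what chose the cells. S100a8 and S100a9 also took part in the choice, through the upper limit. The study asked what macrophages contribute to growth of the tooth root, and the comparison here is how osteoclasts of the same tissue looked after a liposome treatment that kills phagocytes. Lipo-Clo mice were C57BL/6J pups given clodronate liposomes at 40 μg/g into the peritoneum on PN3.5, again on PN6.5 and PN9.5, and last on PN12.5, and Lipo-PBS pups of the same strain got the same volume of vehicle liposomes on those days. Both were killed at PN15.5. The labels name no number of mice for either library, and each condition had 1 library, so no difference between Lipo-Clo and Lipo-PBS below was tested. Intervals are exact 95% intervals and cover counting error only. The dissociated tissue was passed through a 40 μm strainer, and how many large multinucleated cells it held back was not tested.

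Osteoclasts are the cells that resorb bone and mineralised dental tissue. They form when precursors of the monocyte and macrophage lineage, exposed to CSF1 and RANKL, fuse into multinucleated cells, and in the jaw they open the path along which a tooth erupts. A resorbing osteoclast seals an area of bone with a ring of podosomes, pumps protons through a ruffled border with a vacuolar ATPase (V-ATPase), and releases the collagen-cleaving protease cathepsin K together with tartrate-resistant acid phosphatase. NFATc1, working with AP-1 factors, PU.1 and MITF, switches on these effector genes.

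The genes for these hallmark enzymes, Acp5 (tartrate-resistant acid phosphatase) and Ctsk (cathepsin K), led the definition, and the 250 bases before their annotated starts are shown because NFATc1 and MITF are known regulators of both. Sequences are from RefSeq on GRCm38.p6, 5′ to 3′ on the strand of the gene. That table matched 2 of the 6 genes, and Acp5 had 3 annotated starts, of which the one shown was chosen after its matches were seen. Capitals mark GGAAA, the core bound by NFAT factors, and TCATGTG, an M-box bound by MITF, each on either strand, so that TTTCC and CACATGA are their reverse complements. The Ctsk window covers chr3:95498960-95499209 on the + strand, and the Acp5 window covers chr9:22130599-22130848 on the − strand.
Ctsk: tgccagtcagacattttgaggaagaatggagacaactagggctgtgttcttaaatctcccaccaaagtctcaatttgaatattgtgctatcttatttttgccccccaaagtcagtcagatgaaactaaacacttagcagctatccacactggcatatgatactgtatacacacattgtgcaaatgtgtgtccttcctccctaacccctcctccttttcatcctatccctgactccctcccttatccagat
Acp5: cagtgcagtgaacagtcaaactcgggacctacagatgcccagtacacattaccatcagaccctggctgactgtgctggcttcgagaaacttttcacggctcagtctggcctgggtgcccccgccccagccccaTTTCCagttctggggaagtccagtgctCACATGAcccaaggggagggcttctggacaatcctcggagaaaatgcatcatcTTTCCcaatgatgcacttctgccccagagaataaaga
The Acp5 window held 2 GGAAA matches and 1 TCATGTG match, the other 2 Acp5 windows held 1 GGAAA match each, and the Ctsk window held neither. Among 32851 windows of this length with 1 chromosome left out, 55.6% held GGAAA and 3.25% held TCATGTG. The AP-1 letters TGANTCA, found in 6.75% of windows, were in none of the 4. Nothing in the expression data bears on whether any of these matches was bound.

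The deposited libraries held 9362 Lipo-Clo cells with 31053404 UMIs and 9653 Lipo-PBS cells with 30537834 UMIs. The filter kept 8886 and 8894 cells. At least 10 marker UMIs were found in 53 Lipo-Clo and 52 Lipo-PBS cells, of which 5 and 17 fell short of 2 Acp5 UMIs and 1 and 0 were set aside for neutrophil transcripts, leaving 47 and 35 osteoclasts. At the threshold there were 2 and 5 osteoclasts with 10 to 12 marker UMIs and 4 and 5 cells just below, at 8 or 9, and a threshold of 5 would have taken in 59 and 58 cells. Of the cell barcodes, 30 occurred in both libraries and 0 of those belonged to an osteoclast.

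Osteoclast barcodes were deep, which the requirement of 10 marker UMIs itself favours. Lipo-Clo osteoclasts had a median of 7338 UMIs (1606 to 14630) and Lipo-PBS osteoclasts a median of 5279 (2349 to 15663), against medians of 2658 and 2746 in the other cells of each library. The median number of genes was 2231 and 2062, and once every osteoclast was thinned to 1000 UMIs it was 607 and 643. Summed over cells, the osteoclasts gave 355032 and 210648 UMIs, and these sums are the depth behind the levels below, which are in CPM (a gene's UMIs divided by the summed UMIs and scaled to 1000000). Mitochondrial genes took a median of 0.249% of UMIs in Lipo-Clo osteoclasts and 2.21% in Lipo-PBS osteoclasts. A gap in the same direction was present in all other cells, at 0.289% and 1.67%, and its part in the differences below was not tested.

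The osteoclasts of the libraries also differed in how many transcripts of other cell types they carried. Marker genes of mesenchyme and osteoblasts, red cells, lymphocytes, epithelium and endothelium took a median of 0.365% of UMIs in Lipo-Clo osteoclasts and 6.39% in Lipo-PBS osteoclasts. More than 2% was found in 10 of 47 Lipo-Clo and 27 of 35 Lipo-PBS cells, from the mesenchymal list in 8 and 20 cells and from the erythroid list in 2 and 15. Collagen and haemoglobin genes led these lists: Col1a1, the chain of type I collagen made by osteoblasts, had 1599 and 3232 UMIs, and 1 Lipo-PBS cell alone held 1201 of them. Barcodes outside the osteoclasts with at least 0.5% mesenchymal and between 2% and 50% erythroid UMIs numbered 311 in Lipo-Clo (3.50% of kept cells) against 1313 in Lipo-PBS (14.8%). Whether such osteoclast barcodes were osteoclasts attached to other cells, droplets with several cells or free RNA was not tested. Comparisons are therefore given for all osteoclasts and for a restricted set of 37 Lipo-Clo and 8 Lipo-PBS osteoclasts at or under 2%. The restricted set held 272467 and 61674 UMIs, and its other-lineage medians were 0.315% and 0.331%.

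**Figure D1:**
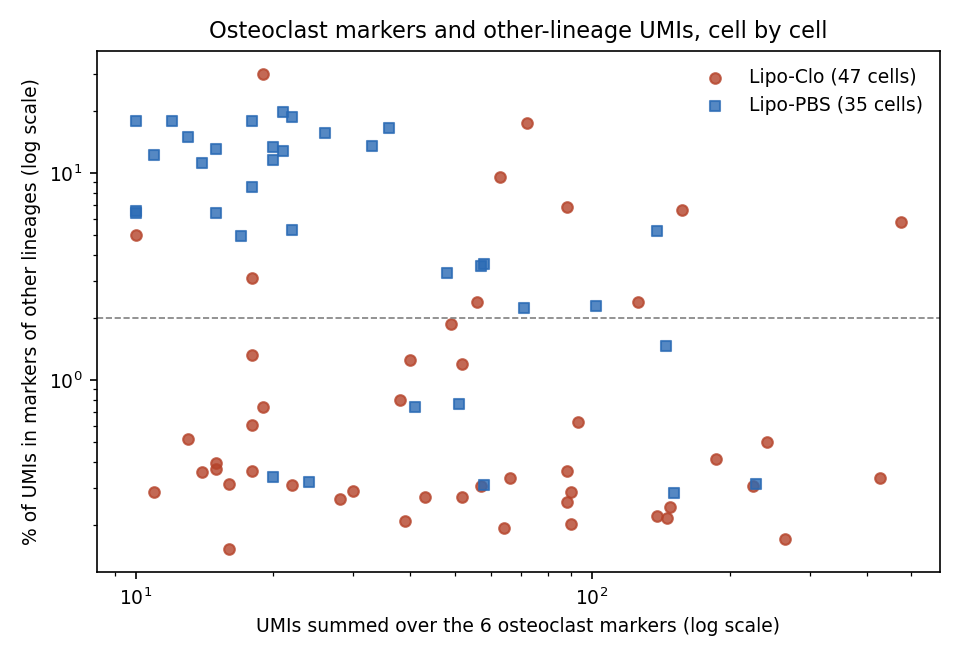
Each point is 1 osteoclast, with its share of UMIs from other-lineage markers on one axis (percent) and its marker UMIs on the other, coloured by library, on log axes. Most Lipo-Clo cells lie under 2% (37 of 47), and most Lipo-PBS cells lie above it (27 of 35).

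Osteoclasts made up 0.529% of Lipo-Clo cells (0.389 to 0.703) and 0.394% of Lipo-PBS cells (0.274 to 0.547). The shares overlapped in their counting intervals, and their log2 ratio was 0.43 (−0.24 to 1.10). In the restricted set the shares were 0.416% (0.293 to 0.573) and 0.0899% (0.0388 to 0.177), a ratio of 4.63 (log2 2.21, 1.09 to 3.52). The 2% limit took away 10 Lipo-Clo and 27 Lipo-PBS cells, so the distance between these ratios was set by which barcodes carried other-lineage transcripts. Over both libraries osteoclasts were 0.461% of the cells kept.

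What the definition did not use gave the cells a broad osteoclast profile. The 20 genes standing highest over the other cells of the same library, by the lower of the 2 libraries and among genes with at least 100 osteoclast UMIs (which leaves out Ocstamp and Dcstamp), began with Atp6v0d2 (log2 7.34), Acp5 (7.23) and Mmp9 (6.03), which the definition used. They went on with Slc37a2, a phosphate-linked sugar transporter of phagocytes and osteoclasts (5.20), Ccl9, a chemokine that osteoclasts release (4.64), and Cd68, a lysosomal membrane protein of phagocytes (4.33). Further down stood Csf1r, the CSF1 receptor (3.70), Tcirg1, the osteoclast a3 subunit of the V-ATPase (3.66), Nfatc1, the master regulator (3.57), Snx10, needed for the ruffled border (3.52), and the AP-1 family member Jdp2 (3.32). S100a4 (3.35), Spi1, which codes for PU.1 (3.24), and the V-ATPase subunit genes Atp6v1b2 and Atp6v0c (2.99) were also among the 20. These values describe cells picked by expression and carry no test.

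The profile stood partly apart from those of the C1q macrophages and monocytes in the same libraries. C1q macrophages, defined by at least 3 UMIs over C1qa, C1qb and C1qc, were 202 cells of Lipo-Clo and 319 of Lipo-PBS, and monocytes, defined by at least 5 UMIs over Ly6c2, Ccr2, Ms4a6c and Plac8, numbered 180 and 63. Nfatc1 stood at 366 and 323 CPM in osteoclasts, at 26.5 and 24.4 CPM in C1q macrophages and at 13.2 and 31.3 CPM in monocytes. Jdp2 was also highest in osteoclasts, at 1377 and 693 CPM, with 206 and 157 CPM in C1q macrophages and 57.0 and 40.7 CPM in monocytes. Csf1r was shared with C1q macrophages and lower in monocytes, at 332 and 266 CPM in osteoclasts, 433 and 368 CPM in C1q macrophages and 50.9 and 50.1 CPM in monocytes. Tyrobp, the gene of the DAP12 adaptor, was at 2836 and 1847 CPM in osteoclasts, 2361 and 1358 CPM in C1q macrophages and 1984 and 1476 CPM in monocytes. Lyz2, the lysozyme of macrophages and monocytes, was at 22.5 CPM in Lipo-Clo osteoclasts and 2530 CPM in Lipo-Clo macrophages. In Lipo-PBS osteoclasts it was at 508 CPM, and 91 of its 107 UMIs came from 1 cell that also held 49 C1q UMIs. C1q genes reached 3 UMIs in 0 of 47 Lipo-Clo and 6 of 35 Lipo-PBS osteoclasts. Of the 15-gene macrophage list, Mrc1, Cd163, Lyve1, Folr2 and Cx3cr1, markers of resident macrophages, were at 0 UMIs in Lipo-Clo osteoclasts. Cd163 and Folr2 were at 0 in Lipo-PBS osteoclasts. Other members were present, with 126 and 128 UMIs of Apoe, 147 and 82 of Cd68, 17 and 23 of Ms4a7, and 17 and 19 of Pf4. Summed, the list stood at 899 and 1685 CPM in osteoclasts and at 593 and 850 CPM in the other cells.

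**Figure D2:**
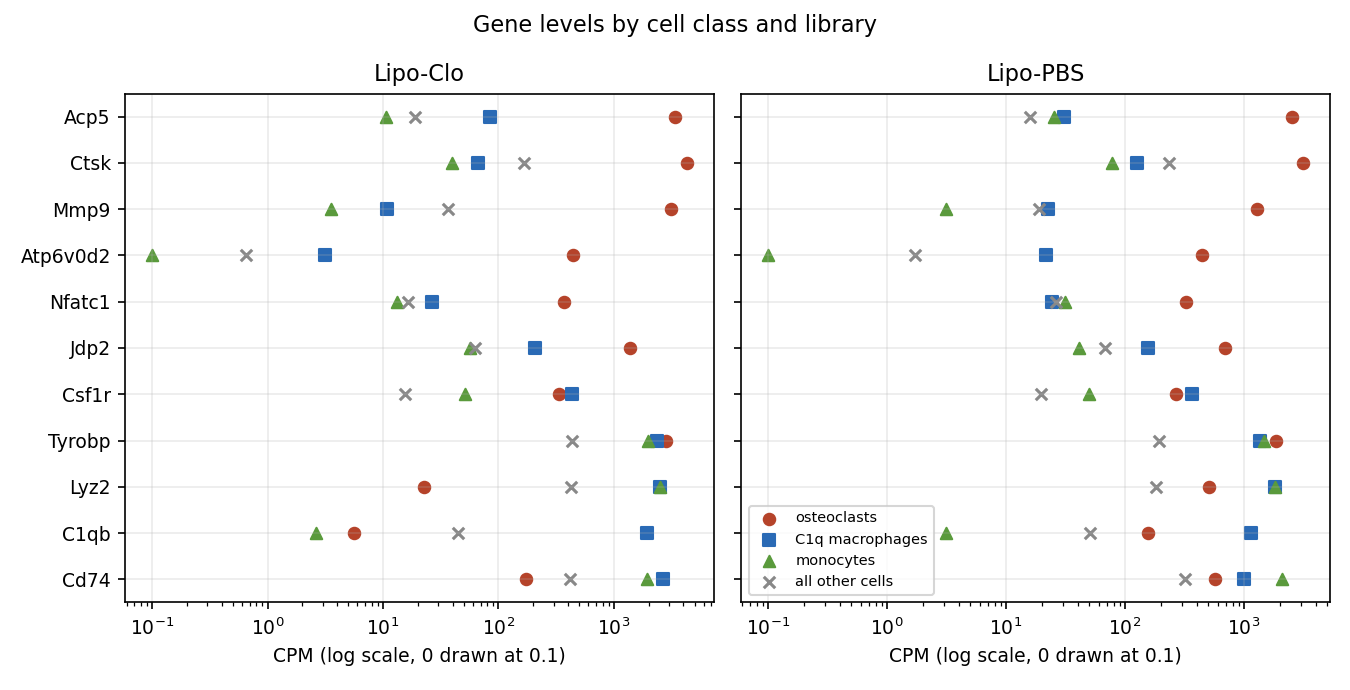
Levels in CPM on a log axis of selected genes in osteoclasts, C1q macrophages, monocytes and all other kept cells (which include both), by library. Nfatc1 and Jdp2 are highest in osteoclasts of both libraries, while Csf1r and Tyrobp are shared with C1q macrophages. Acp5, Ctsk and Mmp9 are also highest there, but the definition picked the cells by these genes.

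The 6 genes of the definition varied widely from cell to cell. Acp5 had a median of 17 UMIs and a highest of 109 in Lipo-Clo osteoclasts, and 9 and 71 in Lipo-PBS osteoclasts. Ctsk had a median of 18 and a highest of 241 in Lipo-Clo and 10 and 84 in Lipo-PBS, and 5 Lipo-Clo osteoclasts had no Ctsk UMI at all. Mmp9, the gelatinase that osteoclasts use to move through matrix, had medians of 11 and 5 and was found in 41 of 47 and 29 of 35 cells. The V-ATPase d2 subunit gene Atp6v0d2 was found in 41 and 26 cells. The fusion genes were sparse: Ocstamp, which codes for OC-STAMP, gave 46 UMIs in 19 Lipo-Clo cells and 10 in 7 Lipo-PBS cells, and Dcstamp, for its relative DC-STAMP, gave 42 in 20 cells and 14 in 9. As summed levels, Acp5 stood at 3352 and 2516 CPM, Ctsk at 4304 and 3128 CPM, and Mmp9 at 3101 and 1291 CPM. In the restricted set the first 2 stood the other way: Acp5 had log2 ratios of 0.41 (0.26 to 0.56) over all osteoclasts and −0.35 (−0.55 to −0.15) there, and Ctsk had 0.46 (0.33 to 0.59) and −0.23 (−0.42 to −0.04), with cell medians of 17 and 26 UMIs for Acp5 and 16 and 24 for Ctsk. That turn leaned on 1 of the 8 Lipo-PBS cells of the restricted set. It held 71 of their 268 Acp5 UMIs and 84 of their 288 Ctsk UMIs, with 4462 UMIs in all. Mmp9 kept its direction, at 1.26 (1.07 to 1.46) and 0.69 (0.40 to 0.99).

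A few cells held much of the marker signal. The 5 cells richest in marker UMIs held 40.2% of them in Lipo-Clo and 48.5% in Lipo-PBS, and the cell medians were 52 and 22. In the restricted set, with 37 and 8 cells, the 5 richest held 45.1% and 88.2%. Across the 47 Lipo-Clo and 35 Lipo-PBS cells, Acp5 and Ctsk shares of UMIs correlated with Pearson r = 0.51 and 0.61, Ctsk and Mmp9 with r = 0.71 and 0.59. Marker UMIs also correlated with the cell's total UMIs (r = 0.53 and 0.47), and cells of a library share its depth and free RNA, so these values are descriptions only. Outside the osteoclasts a low level of these transcripts was present: an Acp5 UMI was found in 4.67% of the other Lipo-Clo and 4.18% of the other Lipo-PBS cells, at median depths of 2658 and 2746 UMIs. The share was 13.3% and 13.5% in B cells, at median depths of 1581 and 2008 UMIs, so it was not alike in every class.

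Most genes stayed within 2-fold between the libraries. Of 3808 genes with at least 20 UMIs over the osteoclasts, 301 (7.9%) were at least 2-fold higher in Lipo-Clo and 601 (15.8%) at least 2-fold lower, with a median log2 ratio (Lipo-Clo over Lipo-PBS) of 0.04. In the restricted set 270 of 2221 genes (12.2%) were past 2-fold higher and 214 (9.64%) past 2-fold lower, with a median of 0.12. The balance depended on scaling: 33.4% of the genes past 2-fold were higher on library totals, 53.5% with TMM factors, which added 0.24 to every log2 ratio, and 59.7% with DESeq2 size factors, which added 0.29. The members counted below are read against these shares.

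Car2 was the 1 gene of acid secretion past 2-fold over all osteoclasts, and its difference depended on where the marker threshold lay. It codes for carbonic anhydrase II, which supplies the protons that the ruffled border pumps out, and had 67 UMIs in 20 of 47 Lipo-Clo osteoclasts and 6 UMIs in 4 of 35 Lipo-PBS osteoclasts, or 189 and 28.5 CPM. Its log2 ratio was 2.73 (1.53 to 4.22) over all osteoclasts and 2.71 (0.80 to 5.79) in the restricted set, where it rested on 58 and 2 UMIs. With the threshold at 5 marker UMIs in place of 10, which took in 59 and 58 cells, the Car2 ratio was 0.20 (−0.21 to 0.62), and at 20 it was 2.75. In the other cells of the libraries Car2 differed by 0.62, and without its richest osteoclast the ratio was 2.39. Of 10 genes of acid secretion and the ruffled border, 6 had enough UMIs, with a median of 0.70, and in the restricted set 3 of 5 were past 2-fold higher. Besides Car2 these were the anion exchanger gene Slc4a2 (22 and 2 UMIs, 1.32, −0.71 to 4.45) and the sodium-proton exchanger gene Slc9b2 (38 and 3 UMIs, 1.52, −0.14 to 3.86), both with intervals that reach 0. Snx10 had 102 and 36 UMIs and a ratio of 0.75 (0.19 to 1.34), which turned to −0.20 (−0.95 to 0.61) in the restricted set.

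The proton pump itself was strong in osteoclasts of both libraries and nearly level between them once mixed barcodes were left out. Summed over 17 V-ATPase genes, Lipo-Clo osteoclasts had 13962 CPM and Lipo-PBS osteoclasts 9262 CPM, against 2807 and 2284 CPM in the other cells. In the restricted set the sums were 14817 and 13734 CPM. Of 15 subunit genes with enough UMIs, 14 had a ratio above 0 over all osteoclasts (median 0.48) and 9 in the restricted set (median 0.15), and 1 and 0 passed 2-fold, the 1 being Atp6v1h with 21 and 6 UMIs (1.05, −0.30 to 2.65). The proteolipid subunit gene Atp6v0c, the most abundant, had 1868 and 690 UMIs with a ratio of 0.68 (0.56 to 0.81), and 0.12 (−0.06 to 0.29) in the restricted set. Tcirg1 had 74 and 48 UMIs with a ratio of −0.13 (−0.67 to 0.43), which became 0.11 with TMM and 0.17 with DESeq2 factors, and −0.99 (−1.73 to −0.22) in the restricted set.

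Proteases other than those of the definition, and their inhibitors, went both ways. The list summed to 6267 and 6195 CPM over all osteoclasts. Its most abundant gene, Cst3, had 842 and 462 UMIs (0.11, −0.05 to 0.28; −0.11, −0.36 to 0.14 in the restricted set), followed by Cstb with 484 and 177. Of 12 of its genes with enough UMIs, 0 were past 2-fold higher and 3 past 2-fold lower (median −0.35, but 0.34 with the threshold at 5 marker UMIs), and in the restricted set 5 of 10 were past 2-fold lower (median −0.91). Ctsl, cathepsin L, had 25 UMIs in 14 Lipo-Clo cells and 46 in 26 Lipo-PBS cells (−1.63, −2.40 to −0.90). Timp1, an inhibitor of matrix metalloproteinases, had 9 and 27 UMIs (−2.34), with 1 and 1 left in the restricted set, and Lgmn, legumain, had 22 and 29 (−1.15), of which 12 lay in 1 Lipo-PBS cell. Cathepsin B showed how far 1 cell could reach: Ctsb had 154 and 136 UMIs (−0.57, −0.92 to −0.23) with 41 in the Lipo-PBS cell rich in C1q. Without those 41 UMIs the ratio was −0.06. In the restricted set the Ctsb ratio was −1.56 with that cell and −0.21 with the whole cell left out. Leaving that cell out also moved the list's restricted median from −0.91 to −0.44. Ctsz, cathepsin Z, ran the other way with 181 and 59 UMIs (0.86, 0.43 to 1.31; 0.37, −0.25 to 1.05 in the restricted set).

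Of 16 receptor and adaptor genes through which osteoclasts are driven, 8 had enough UMIs and 0 of these were past 2-fold over all osteoclasts. Oscar, a receptor that signals through the adaptor FcRγ, fell short of that number with 15 and 2 UMIs (2.15, 0.05 to 5.33; 1.03, −1.82 to 6.48 in the restricted set). The 8 had a median of 0.35, which turned to −0.51 in the restricted set, where Trem2, a receptor that signals through DAP12, was past 2-fold lower (18 and 9 UMIs, −1.14, −2.37 to 0.19). Tnfrsf11a, the RANKL receptor RANK, had 40 UMIs in 27 Lipo-Clo cells and 15 in 10 Lipo-PBS cells (0.66, −0.23 to 1.62), and −0.23 (−1.32 to 1.02) on 34 and 9 UMIs in the restricted set. Csf1r had 118 and 56 UMIs (0.32, −0.15 to 0.81; −0.51, −1.14 to 0.16 in the restricted set), and Tyrobp had 1007 and 389 (0.62, 0.45 to 0.79), with 0.04 (−0.19 to 0.28) in the restricted set. In all other cells Tyrobp stood at 437 and 193 CPM.

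The ligands for these receptors had few UMIs in osteoclasts, too few to place their source. Tnfsf11, which codes for RANKL, had 104 UMIs in the other Lipo-Clo cells and 178 in the other Lipo-PBS cells (3.54 and 6.28 CPM), with 0 and 1 UMIs in osteoclasts, a number that their smaller sums would allow at the same level. Its decoy receptor osteoprotegerin, from Tnfrsf11b, stood at 13.8 and 14.3 CPM in the other cells. Csf1 was at 17.0 and 17.9 CPM there and had 2 and 1 UMIs in osteoclasts, and Il34, the other ligand of the CSF1 receptor, was at 10.3 and 19.3 CPM with 1 and 0 UMIs.

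Among transcription factors Nfatc1 had an interval that reached 0, Jdp2 was higher in Lipo-Clo, and Jun and Fos were lower over all osteoclasts. Of 15 factor genes, 0 were past 2-fold higher and 2 past 2-fold lower, with a median of 0.18, and in the restricted set the median was −0.32 over 13. Nfatc1 had 130 and 68 UMIs (0.18, −0.25 to 0.63; −0.30, −0.91 to 0.35 in the restricted set), and Spi1 had 143 and 62 (0.45, 0.01 to 0.91; −0.31, −0.87 to 0.30 in the restricted set). Jdp2 was higher, with 489 UMIs in 43 Lipo-Clo cells and 146 in 25 Lipo-PBS cells (0.99, 0.72 to 1.27; 0.43, 0.07 to 0.81 in the restricted set). Its ratio was 0.39 (0.06 to 0.72) in C1q macrophages, 0.49 (−0.39 to 1.47) in monocytes and −0.12 in all other cells together. Jun, an AP-1 subunit gene, was among those past 2-fold lower over all osteoclasts (60 and 111 UMIs, −1.64, −2.12 to −1.17), and in the restricted set its ratio was −0.52 (−1.45 to 0.51). Fos had 311 and 282 UMIs (−0.61, −0.85 to −0.37). Both were also lower in C1q macrophages (Jun −0.78, Fos −0.43), in monocytes (−1.16 and −0.72) and in all other cells together (−0.57 and −0.52). Jun and Fos are also among the genes switched on while tissue is dissociated. Of that list, 6 of 8 genes were past 2-fold lower in osteoclasts (median −1.44) and 3 of 7 in the restricted set (median −0.81). The list's sum had a log2 ratio of −1.05 in osteoclasts and −0.44 over the other cells. The part of dissociation in these values was not tested.

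Genes of fusion and of the podosome ring held mixed differences. Src, the kinase that organises the ring, had 54 UMIs in 28 Lipo-Clo cells and 13 in 9 Lipo-PBS cells (1.30, 0.41 to 2.30), and the ratio was 0.01 (−1.06 to 1.24) in the restricted set. Was, the actin regulator found in podosomes, had 22 UMIs in 19 Lipo-Clo cells and 1 UMI in Lipo-PBS (3.71, 1.08 to 9.07). Vcl, vinculin, had 14 and 31 (−1.90, −2.92 to −0.95). Of these, 20 and 0 UMIs of Was and 9 and 4 of Vcl were in the restricted set. Over 20 podosome genes 2 were past 2-fold higher and 1 past 2-fold lower, with a median of 0.33, and −0.06 in the restricted set. The most abundant of them, the actin-binding profilin gene Pfn1, had 1049 and 420 UMIs (0.57, 0.40 to 0.73). Of 9 fusion genes, Src was past 2-fold higher and the tetraspanin gene Cd81 past 2-fold lower, with 33 UMIs in 16 Lipo-Clo cells and 89 in 28 Lipo-PBS cells (−2.18, −2.81 to −1.59). The fusion median was 0.34 over all osteoclasts and −0.52 in the restricted set. Cd9, the partner of Cd81, which takes part in macrophage fusion, had 180 and 181 UMIs (−0.76, −1.07 to −0.46).

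Among the signals that osteoclasts send to other cells, Ccl9 was higher in Lipo-Clo over all osteoclasts and in the restricted set. Ccl9 had 270 UMIs in 40 of 47 Lipo-Clo osteoclasts and 44 UMIs in 17 of 35 Lipo-PBS osteoclasts, 760.5 and 209 CPM. The ratio was 1.86 (1.40 to 2.36) over all osteoclasts, 1.52 without its richest cell, which held 58 UMIs, and 1.09 (0.42 to 1.83) in the restricted set, against 0.20 in the other cells. Of 7 signal genes with enough UMIs, 3 were past 2-fold higher and 3 past 2-fold lower. Sema4d, a semaphorin that restrains osteoblasts, had 69 and 20 UMIs (1.03; −0.06 in the restricted set), and Pdgfb, for platelet-derived growth factor B, had 35 and 10 (1.05, 0.01 to 2.23; 0.05, −1.16 to 1.47 in the restricted set). Cthrc1, a secreted coupling factor, had 12 and 24 UMIs (−1.75), of which 4 and 1 were in the restricted set (−0.14, −3.48 to 5.48), and it was lower in osteoclasts (33.8 and 114 CPM) than in the other cells (203 and 222 CPM). Slit3, a guidance factor, had 7 and 17 UMIs (−2.03), of which 3 and 2 were in the restricted set. The chemokine gene Ccl4 had 5 UMIs in 5 Lipo-Clo cells and 54 in 8 Lipo-PBS cells (−4.19, −5.87 to −2.88). Of these, 31 lay in the C1q-rich cell, and the Ccl4 ratio was −2.95 without those UMIs. In the restricted set that cell held all 31 Lipo-PBS UMIs of Ccl4, so without it the counts were 5 and 0 and no ratio is given.

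**Figure D3:**
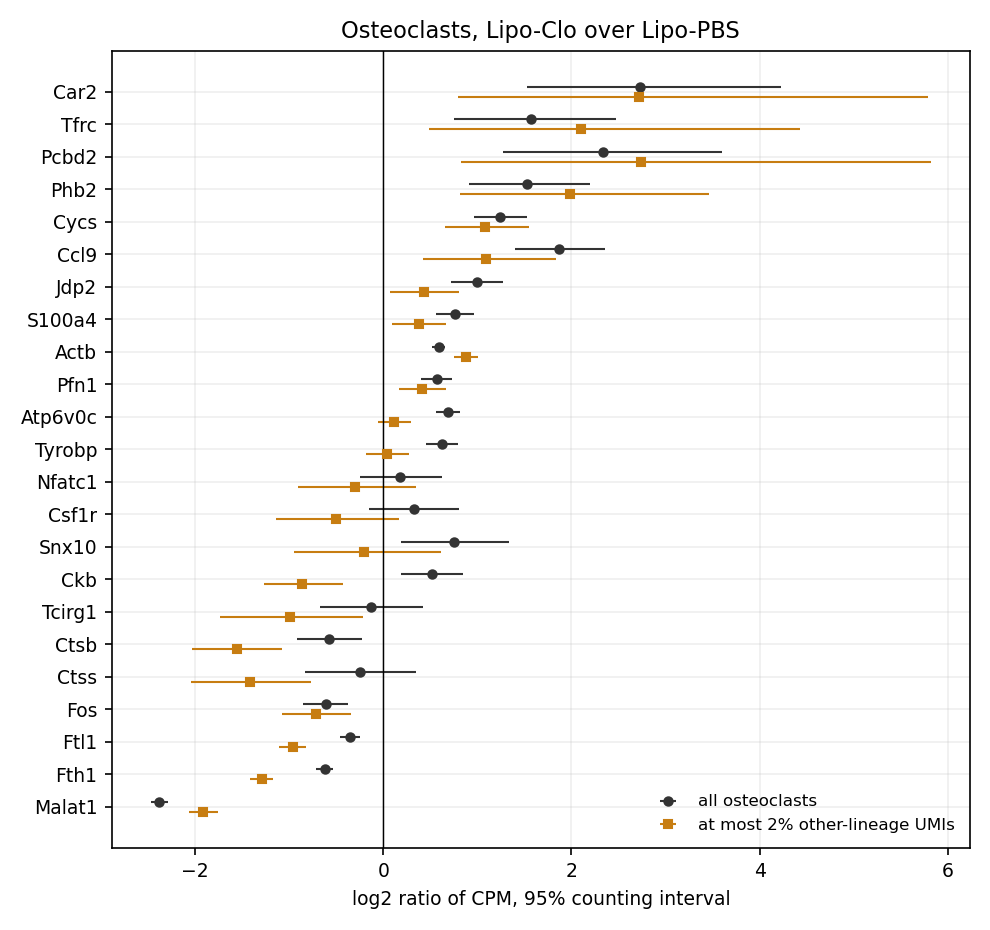
Log2 ratio of CPM, Lipo-Clo over Lipo-PBS, with 95% counting intervals, for named genes in all osteoclasts (circles) and in the restricted set with at most 2% other-lineage UMIs (squares). Car2, Tfrc, Pcbd2, Phb2, Cycs and Ccl9 lie above 0 in both sets, Malat1 and Fth1 lie below 0 in both, and Ckb and Snx10 change side.

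Iron genes pointed in opposite directions. Tfrc, the transferrin receptor that takes up iron, had 75 UMIs in 26 Lipo-Clo cells and 15 in 9 Lipo-PBS cells, with a ratio of 1.57 (0.76 to 2.48), and 2.10 (0.48 to 4.42) on 57 and 3 UMIs in the restricted set. Fth1, the ferritin heavy chain that stores iron, had 2076 and 1895 UMIs, with a ratio of −0.62 (−0.71 to −0.53). A single Lipo-PBS cell held 400 of the Fth1 UMIs, and the Fth1 ratio without those UMIs was −0.28. In the restricted set the ratio was −1.29 with them and −0.35 without them. The other UMIs of that cell stayed in the total in both cases. In the other cells Tfrc (0.58, 0.43 to 0.73) and Fth1 (0.45) were both higher in Lipo-Clo. Hmox1, haem oxygenase, which frees iron from haem, had 11 UMIs in 7 cells and 30 in 15 (−2.20, −3.35 to −1.16). Over 6 iron genes, 1 was past 2-fold higher and 2 past 2-fold lower.

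Most genes of oxidative phosphorylation had ratios above 0 but few passed 2-fold. Of 80 nuclear genes of oxidative phosphorylation, 79 had a ratio above 0 and 2 passed 2-fold (median 0.53), and 66 were above 0 in the restricted set (median 0.34). In the other cells the same list's sum differed by 0.26, and the mitochondrially coded share ran the opposite way, as given above. Cycs, cytochrome c, had 521 UMIs in all 47 Lipo-Clo cells and 131 in 29 of 35 Lipo-PBS cells (1.24, 0.96 to 1.53; 1.09, 0.65 to 1.55 in the restricted set), with 0.66 in the other cells together and 1.18 (0.92 to 1.44) in monocytes. Phb2, a scaffold protein of the inner mitochondrial membrane, had 126 and 26 UMIs (1.52, 0.91 to 2.19), beside 1.36 (0.80 to 1.98) in monocytes, and Pcbd2, a small dehydratase and cofactor protein, had 68 and 8 (2.33, 1.27 to 3.60). Cytosolic ribosomal protein genes had a median of 0.53 over 82 genes with 0 past 2-fold, against 0.21 for their sum in the other cells. These abundant genes are best read beside the median of 0.38 over the 807 genes with at least 100 UMIs, which was higher than the 0.04 over all genes. The brain-type creatine kinase gene Ckb, which supplies ATP at the ruffled border, had 272 and 113 UMIs (0.51, 0.19 to 0.84) and turned to −0.86 (−1.27 to −0.43) in the restricted set.

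Transcripts of other cell types moved with these comparisons. Mesenchymal and osteoblast genes summed to 10593 CPM in Lipo-Clo osteoclasts and to 35590 CPM in those of Lipo-PBS, with 9 of 10 past 2-fold lower, and to 2022 and 4102 CPM in the restricted set. Erythroid genes, led by Hbb-bs, summed to 12650 and 30905 CPM, and to 1630 and 2270 CPM in the restricted set. Of 7 macrophage genes, 4 were past 2-fold lower, and all 4 MHC class II genes with enough UMIs were, with a median of −2.35. The most abundant of these 4 was the invariant chain gene Cd74 (61 and 120 UMIs, −1.73, −2.20 to −1.27). Cd74 had 57 and 23 UMIs in the restricted set (−0.83, −1.56 to −0.07), where H2-Eb1 had 11 and 0, H2-Ab1 had 10 and 1 and H2-Aa had 3 and 0. Neutrophil genes ran the other way: the list summed to 730 and 195 CPM in osteoclasts and to 30727 and 6598 CPM in the other cells of the libraries. The definition itself capped S100a8 and S100a9, so these osteoclast values are limited by how cells were chosen and carry no conclusion. The 2 genes gave 56 and 129 of the list's 259 Lipo-Clo UMIs, and 2 and 10 of its 41 Lipo-PBS UMIs. S100a9 had 129 UMIs in 30 Lipo-Clo cells, 70 of them in 1 cell, and 10 in 10 Lipo-PBS cells (2.94; −0.19 with the threshold at 5 marker UMIs), beside 2.25 in the other cells. The part of these transcripts in the osteoclast differences was not tested beyond the restricted set.

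**Figure D4:**
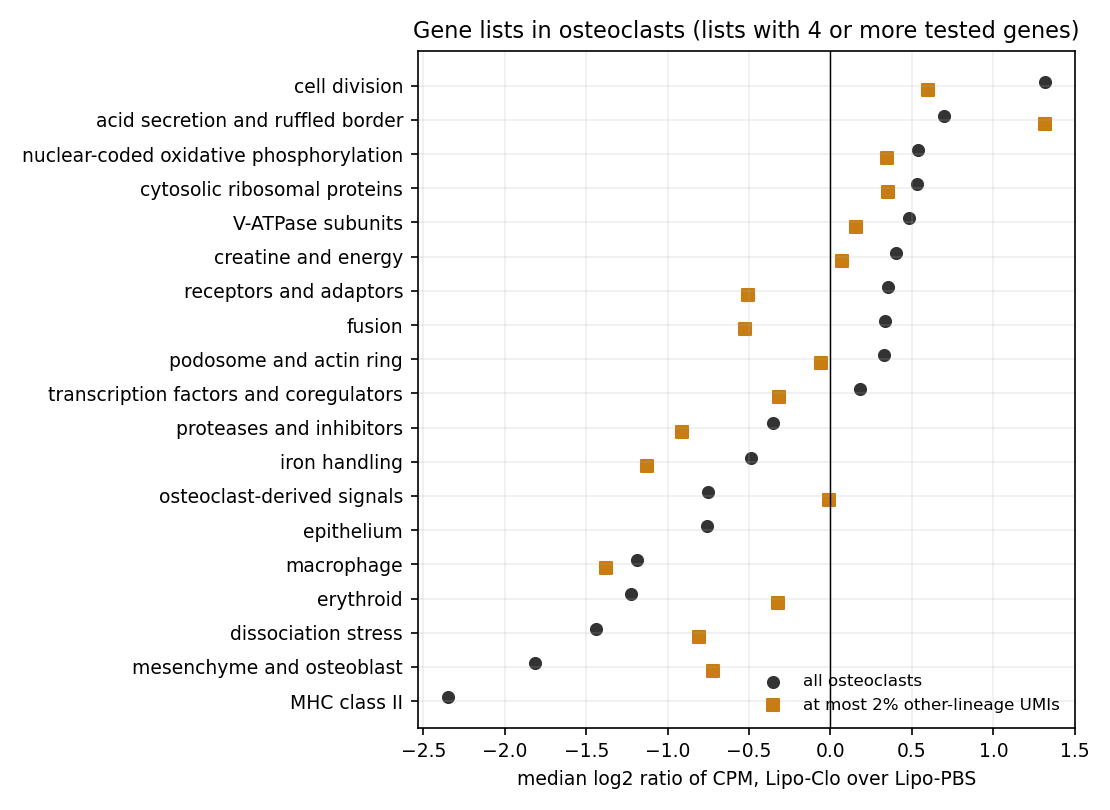
Median log2 ratio, Lipo-Clo over Lipo-PBS, for gene lists with 4 or more tested genes in all osteoclasts and in the restricted set, with a line at 0. For reference, the medians of all genes, which are not drawn, were 0.04 and 0.12, and 0.38 over genes with at least 100 UMIs in all osteoclasts. Acid secretion, oxidative phosphorylation and ribosomal protein genes stay above 0 in both sets, and mesenchymal and protease genes below it. MHC class II (1 tested gene, Cd74) and epithelium (2 tested genes) have no restricted-set point.

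The single genes farthest from 0 were often carried by 1 or a few cells. In Lipo-Clo the secreted goblet-type genes Tff2 (92 UMIs), Muc5b (42), Agr2 (39) and Wfdc12 (26) came from 1 osteoclast barcode and were at 0 in Lipo-PBS, and 62 of the 64 UMIs of the stefin gene Stfa1 came from 1 cell. In Lipo-PBS 91 of the 92 UMIs of the lymphoid chemokine gene Ccl21a came from 1 cell. Other genes lower in Lipo-Clo lay in more cells. BC037156 (139 UMIs), Dio2 (46) and Psca (44) were at 0 in Lipo-Clo and came from 3, 7 and 3 Lipo-PBS cells. Aqp1 had 3 UMIs in 3 Lipo-Clo cells and 44 in 13 Lipo-PBS cells (−4.63, −6.96 to −2.99). Selenop had 5 in 4 cells and 56 in 14 (−4.24, −5.92 to −2.93). In the restricted set Aqp1 had 3 and 8 UMIs, Selenop had 2 and 39, and the other 3 had 0 and 0. Over all 3808 genes, 23 had more than 50% of their UMIs in 1 cell. A difference spread over all osteoclasts was that of Malat1, a nuclear noncoding RNA, with 1300 and 4012 UMIs (−2.38, −2.47 to −2.29; −1.91 in the restricted set; −1.43 in C1q macrophages; −0.74 in the other cells). Saa3, an acute-phase gene, had 0 UMIs in Lipo-Clo and 41 in 8 Lipo-PBS cells (a log2 ratio of −4.53 or lower against a floor of 3 counts per library), and 0 and 0 in the restricted set. In C1q macrophages Saa3 ran the other way, with 61 and 1 UMIs, and in monocytes with 119 and 0.

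Some osteoclasts carried transcripts of cell division. At least 3 UMIs of a 10-gene division list were found in 17 of 47 Lipo-Clo and 6 of 35 Lipo-PBS osteoclasts. These counts were not adjusted for depth, which had medians of 7338 and 5279 UMIs. Mki67, which marks cycling cells, had 25 UMIs in 9 Lipo-Clo cells and 3 UMIs in 1 Lipo-PBS cell (2.31, 0.59 to 4.68), and 0.92 (−0.80 to 3.29) in the restricted set. Of 7 division genes, 5 were past 2-fold higher and 0 lower (median 1.32), and 1 of 6 in the restricted set (median 0.60). A single Lipo-PBS cell held 45 of the list's 86 Lipo-PBS UMIs and of the 51 in the restricted set. The richest Lipo-Clo cell held 61 of 360, and of the 341 in the restricted set. The restricted values thus set Lipo-Clo mainly against 1 Lipo-PBS cell. Over the other cells the list's sum was higher in Lipo-Clo by 0.93. Mature osteoclasts do not divide while their precursors do, and neither the stage of these cells nor droplets shared with cycling cells was tested.

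Within Lipo-Clo, osteoclasts rich in the defining markers differed from those with fewer in genes the definition did not use. The 18 restricted-set cells with 50 or more marker UMIs held 156266 UMIs (median 8841 a cell) and the 19 with 10 to 49 held 116201 (median 5731), and since cells of 1 library are not replicates the comparison is a description. Ckb had 160 UMIs in the richer cells and 8 in the others (3.89, 2.88 to 5.13), and Mt3, a metallothionein, had 219 and 4 (5.35, 3.97 to 7.24), although 103 of the Mt3 UMIs lay in 1 cell. Genes of the ruffled border followed: Snx10 had 64 and 9 UMIs (2.40, 1.39 to 3.60) and Car2 had 49 and 9 (2.02, 0.98 to 3.23). Slc37a2 (53 and 12 UMIs, 1.72) and Tfrc (44 and 13, 1.33) were higher as well, and so was the summed acid-secretion list (1.40, 0.97 to 1.84). V-ATPase genes summed to 17208 and 11601 CPM.

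The upstream receptor and regulator genes were mixed. Csf1r had 64 and 23 UMIs (1.05, 0.34 to 1.80), Nfatc1 had 68 and 36 UMIs (0.49, −0.11 to 1.12), Jdp2 had 272 and 169 (0.26, −0.02 to 0.54), and Tyrobp was level (−0.05, −0.25 to 0.15). Lower in the marker-rich cells were Ctss, cathepsin S of antigen-presenting cells (19 and 39 UMIs, −1.46), Junb (−0.75), S100a4 (−0.41) and the summed ribosomal protein genes (−0.31). The mesenchymal list was at 1280 and 3021 CPM and the neutrophil list at 474 and 1282 CPM in the same cells, and their part in the difference was not tested. Lipo-PBS had 5 and 3 such cells. There Ckb had 69 and 0 UMIs, Snx10 had 16 and 3 (1.10, −0.70 to 3.52), Tfrc had 2 and 1, and Slc37a2 stood the other way from Lipo-Clo (2 and 8 UMIs, −3.31, −6.58 to −0.99). The C1q-rich cell was 1 of the 3 marker-poor cells.

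**Figure D5:**
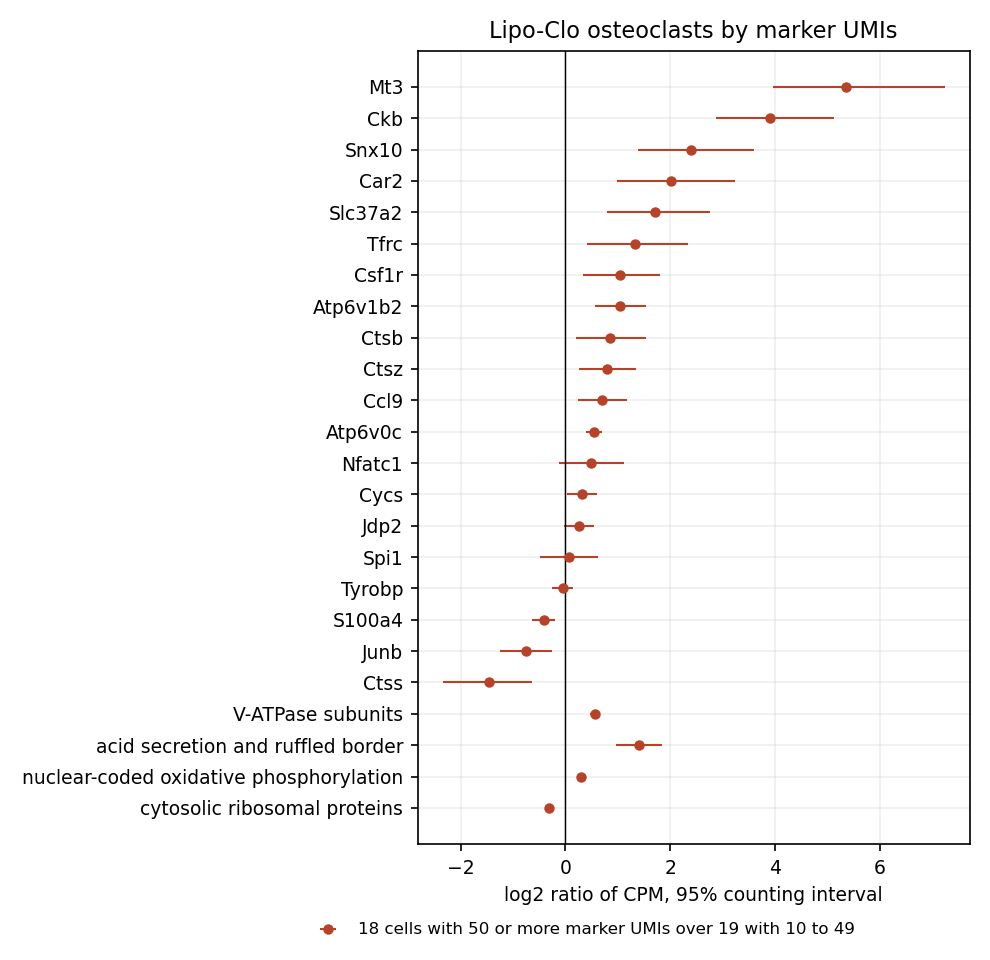
Log2 ratio of CPM with 95% counting intervals between 18 Lipo-Clo osteoclasts with 50 or more marker UMIs and 19 with 10 to 49, for named genes and, in the lowest 4 lines, for summed gene lists. Mt3, Ckb, Snx10 and Car2 lie farthest above 0, Nfatc1, Jdp2, Spi1 and Tyrobp have intervals that reach 0, and Ctss and Junb lie below it.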

How the data were processed

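The deposited values were UMI counts per gene and cell, which the authors made with Cell Ranger (3.1.0 in the submitters' processing notes, 8.0.0 in the file header) with the build GRCm39 named there, with Seurat 3.1.1 also named. The table held 34285 genes. Unused columns of sample values numbered 0. Cells were filtered and osteoclasts chosen as defined above, counts were summed per library over those cells, and levels were expressed as CPM. Members and gene lists were chosen with earlier results of these data known. Log2 ratios carry exact conditional binomial intervals, shares Clopper-Pearson intervals, at 95%. Genes at 0 in 1 library were set to 3 counts and give a bound. Ratios without a gene's richest cell leave out that cell's UMIs of the gene, while its other UMIs stay in the total. With 1 library per condition no test was run, and genes were counted by size (2-fold, at least 20 UMIs). Named genes were drawn from the 6 markers, the 4 most abundant members of each list and any past 2-fold. They were also drawn from the 10 per direction with the interval bound farthest from 0 (mitochondrial, haemoglobin and sex-linked marker genes left out), the 20 standing highest over other cells (at least 100 UMIs), and 4 ligands. Not every gene that met these rules is named above, and which of them to name followed no fixed rule. Cycs, Phb2, Pcbd2, Malat1, Mt3, Ctsz, Tnfrsf11a, Oscar and the comparison of marker-rich with marker-poor cells were chosen after values were seen. The automatic doublet threshold of Scrublet called 0 of 8886 and 1 of 8894 cells and so did not work, and no doublets were removed. Leaving out the 632 and 633 cells with the highest scores was an alternative, which took 5 and 0 osteoclasts. Alternatives for scaling used edgeR 4.0.16 and DESeq2 1.42.0, and the rest was computed in Python 3.11.15 with NumPy 2.4.6, SciPy 1.17.1, pandas 2.3.3 and Scanpy 1.11.5. The gene ratios were tested on simulated data with known changes. A gene counted in the transcription factor list is not reported here by name.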

Additional observations from a re-analysis of the deposited data

How the results depend on the processing

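No paired analysis was possible because Lipo-Clo and Lipo-PBS were sequenced as 1 library each. The log2 ratio of osteoclast shares was at 0 within counting error with 5 marker UMIs (0.03, −0.52 to 0.57) and among cells with a Ptprc UMI or an osteoclast call (0.08, −0.58 to 0.76), as its interval of −0.24 to 1.10 already allowed. It was 1.17 without cells over 2% erythroid UMIs, 1.52 without cells over 5% other-lineage UMIs, 2.21 without those over 2%, and 2.40 without the C1q-rich cell as well. The Lipo-PBS share was then 0.225%, 0.157%, 0.0899% and 0.0787%. It was 0.652% with 5 marker UMIs and 0.259% with 20, where Lipo-Clo was at 0.371%, and of the Ptprc cells the shares were 6.01% and 5.68%. The 5% and erythroid limits, leaving out the C1q-rich cell and leaving out each gene's richest cell were chosen after seeing the data. Against 301 genes past 2-fold higher and 601 lower, the lower count was 956 with 5 marker UMIs, 323 with 20, 287 at the 5% limit, 214 at the 2% limit and 192 without the C1q-rich cell too. The higher count was 529 with TMM factors (460 lower), 616 with DESeq2 factors (416 lower) and 185 without each gene's richest cell. The counts were 91 and 51 with cells thinned to 1000 UMIs, 51 and 57 for genes with 100 UMIs, 787 and 1892 for genes in 10% of osteoclasts, 959 and 4068 for genes with 1 UMI, and 819 and 989 at 1.5-fold. At the 2% limit, the 5% limit and the 2% limit without the C1q-rich cell, Snx10 turned to −0.20, −0.11 and −0.33, Ckb to −0.86, −0.38 and −0.99, the receptor list to −0.51, −0.091 and −0.36 (−0.028 with 20 marker UMIs), and the epithelial list to 1.26, 2.60 and 1.13 (2.76 with 20 marker UMIs). At the 2% limit the epithelial median rested on 2 genes, Odam (71 and 3 UMIs) among them, against 4 over all osteoclasts. The podosome list turned to −0.056 and −0.12 at the 2% limit with and without the C1q-rich cell. S100a9 turned to −0.19 with 5 marker UMIs and Mt3 to −0.28 without its richest cell. The cause of each was not tested. Of 19 lists, 10 had a median above 0, and 7 to 11 did under the alternatives. With 82 cells and 1 library per condition, differences between animals cannot be told apart from the treatment, and genes with few UMIs have wide intervals.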
